A study of Mus musculus with 34 samples.

Results

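The 10 genes described here, Pecam1, Cdh5, Kdr, Tek, Tie1, Flt1, Emcn, Eng, Sox17 and Sox18, are known for their use in endothelial cells, the cells that line blood vessels. They were taken by name from the gene tables of a CUT&RUN study of H3K9me2, dimethylation of histone H3 at lysine 9. Of these 10 genes, 9 were among the 28706 genes of the soma table and all 10 among the 27021 genes of the table for primordial germ cells (PGCs). Sox18 was not analysed in soma here.

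H3K9me2 is written mainly by the enzymes G9a and GLP and marks chromatin that is kept silent. It is removed by dioxygenases of the Jumonji family, for which vitamin C acts as a cofactor. In CUT&RUN an antibody brings a nuclease to the mark, and the DNA it releases is sequenced. The endothelium of vessels is built through the VEGF and angiopoietin receptors and held together by junction proteins.

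All libraries came from female C57BL/6 embryos of genotype Gulo-/- at embryonic day 13.5. Gulo is the last enzyme of vitamin C synthesis, so these embryos depended on vitamin C in the maternal diet, which was supplied at physiological levels or withdrawn during the early weeks of gestation. Sorting separated Oct4GFP+ PGCs, the precursors of the gametes, from Oct4GFP- soma, the mixed remainder of the gonad, which includes its endothelium. H3K9me2 libraries of 1000 cells numbered 4 supplied and 3 withdrawn for soma, and 5 supplied and 5 withdrawn for PGCs. IgG libraries had the same numbers and were not analysed here, so background signal over a gene was not separated from the mark. The soma table is a mean over all Oct4GFP- cells, so the share of endothelial cells and the mark per cell cannot be told apart, and a chromatin mark over a gene does not measure its expression, so the labelled cell types could not be checked against marker expression.

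The deposited tables give, for each gene, a log2 fold change, an average and limma statistics, with no values per library. Their headers name no antibody, and they were taken as the H3K9me2 tables. Log2 fold changes are given below as withdrawn minus supplied. For soma that direction was read from the standard errors, which a model with 4 subtracted libraries matched to a median of 0.0817% and one with 3 to 2.03%. For PGCs, with equal groups, the direction could not be read and was assumed to be the same.

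The 10 genes differed widely in size and in signal. On mm10 the longest was Flt1 (chromosome 5, 147561604 to 147726438, 165 kb), followed by Tek (chromosome 4, 94739086 to 94874976, 136 kb) and Emcn (chromosome 3, 137341062 to 137431069, 90.0 kb). Pecam1 (chromosome 11, 106654213 to 106715281) spans 61.1 kb, Kdr (chromosome 5, 75932827 to 75979072) 46.2 kb and Cdh5 (chromosome 8, 104101613 to 104144504) 42.9 kb. Eng (chromosome 2, 32646595 to 32682669) spans 36.1 kb and Tie1 (chromosome 4, 118471191 to 118489849) 18.7 kb. The SOX factors are short, with 6.50 kb for Sox17 (chromosome 1, 4490928 to 4497426) and 1.80 kb for Sox18 (chromosome 2, 181669837 to 181671640).

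The average signal followed that size. Across all genes with a known span the average log2 CPM (CPM, counts scaled to library size, averaged over all libraries of a table) correlated with the log2 span at r = 0.92 in soma and 0.86 in PGCs, a description over genes that share libraries. Tek had the highest average of the 10 in soma, 7.02 log2 CPM in the authors' deposited table, and Sox17 the lowest, 2.04. In PGCs the averages ran from 6.98 log2 CPM for Flt1 to 1.31 for Sox18 in the authors' deposited table. From the lowest averages, the geometric mean of the effective library sizes came to 1512598 reads or more for soma and 613601 or more for PGCs. With that many reads Tek had about 196 reads per soma library and Sox17 6.22, and Sox18 had 1.52 per PGC library, so the SOX genes carried the least information.

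Per kilobase of span, Pecam1 was high among the members in both tables. Its average of 0.11 log2 CPM per kb in soma lay above 86.3% of all genes, and its 0.43 in PGCs above 86.8%. In soma, Tek at -0.069 log2 CPM per kb lay above 78.9% of genes, while Cdh5, Kdr, Tie1, Flt1, Emcn, Eng and Sox17 ranged from -0.80 (Tie1) to -0.51 (Flt1), all below the median gene at -0.47. In PGCs Tie1 was higher, at -0.14 log2 CPM per kb and above 72.3% of genes, against 25.3% in soma. Sox17 also ranked higher in PGCs (above 69.5% of genes, against 34.7%), as did Eng, Flt1, Cdh5 and Kdr. Tek (54.2%) and Emcn (26.5%) ranked lower than in soma. Sox18 stood at 0.46 in PGCs, above 87.1% of genes. Over all genes the slope of the average on log2 span was 0.82 in PGCs and 0.90 in soma. Whether span shaped these ranks was not tested. These levels have no error, because the tables give none for an average, and were not tested.

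**Figure D1:**
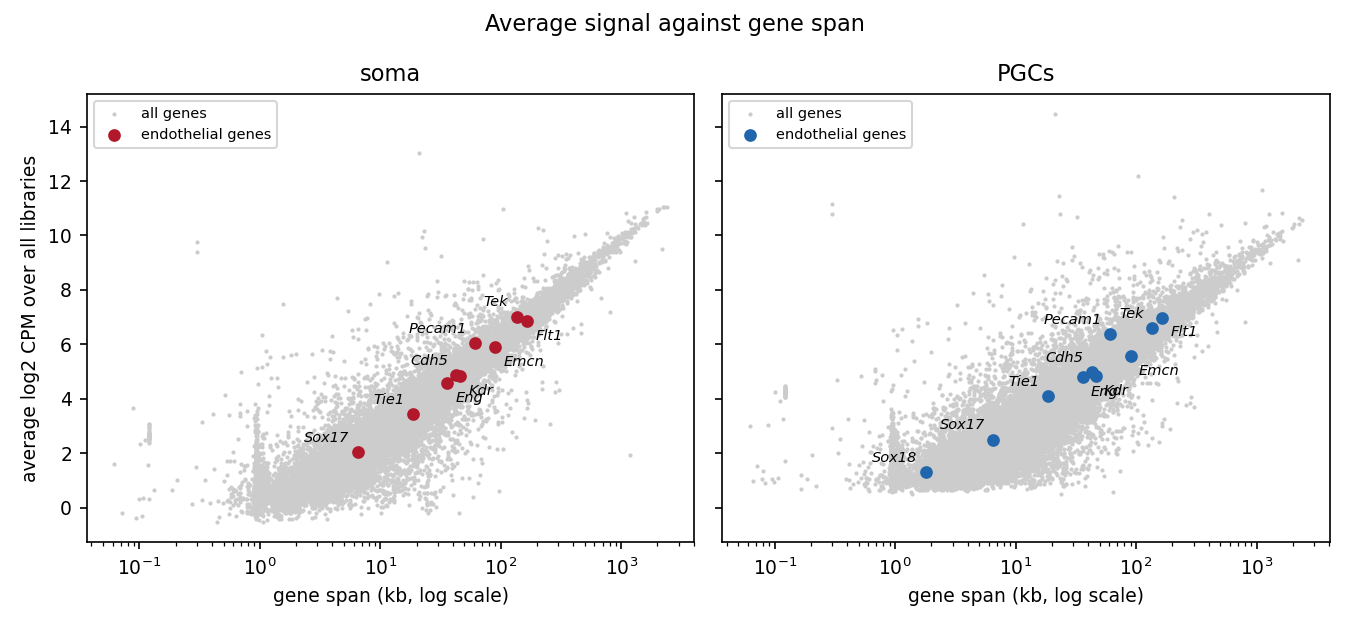
Average log2 CPM (vertical) against gene span in kb on a log scale (horizontal) in soma (left) and PGCs (right). Grey points are all genes with a known span and coloured points the endothelial genes, which lie along the trend of all genes, from Sox17 at 2.04 to Tek at 7.02 in soma.

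The first comparison asked how H3K9me2 over these genes differed in soma after vitamin C withdrawal. All 9 measured genes rose, by 0.66 to 1.42 in log2 fold change, in the authors' deposited table (limma, adjusted p under 0.05), and their median was 1.07, or 2.09-fold. The shift was general: 68.2% of all 28706 soma genes rose and 0.101% fell by the same rule, and the median gene stood at 1.04. How the libraries were scaled is not stated, and whether the scaling contributed to this common shift was not tested. Calls were also more frequent at higher averages, with 79.3% of genes risen among those at or above the average of Sox17 and 91.4% among those at or above the median member. The count of 9 of 9 is thus read against a share of about that size.

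**Figure D2:**
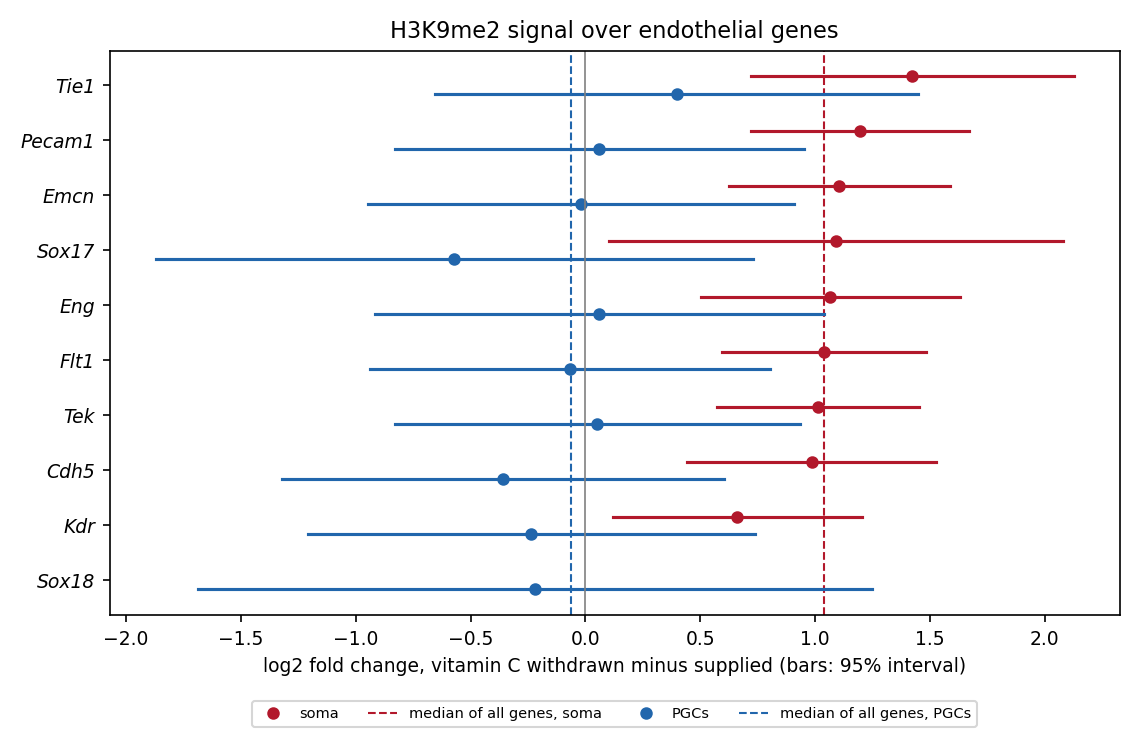
Log2 fold change of each endothelial gene in soma (red) and PGCs (blue), with 95% intervals from the pooled degrees of freedom. Dashed lines mark the median of all genes in each table. The 9 soma points lie between 0.66 and 1.42 around the soma median, the PGC points between -0.57 and 0.40, and the sign for PGCs is assumed.

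The VEGF receptors gave the lowest value and a middle one. Kdr, the main signalling receptor for VEGF-A, had a derived level of 23.6 CPM with vitamin C supplied and 37.3 CPM withdrawn. Its log2 fold change was 0.66 ± 0.28 (SE; limma adjusted p = 0.0273) in the authors' deposited table. Flt1, a receptor that binds VEGF-A and limits its signalling, had 85.1 and 175 CPM, a log2 fold change of 1.04 ± 0.23 (adjusted p = 3.83e-05 in the authors' deposited table). Kdr and Sox17 were the members that lost their call in this setting: with 5 degrees of freedom, those left by the 7 soma libraries without pooling over genes, the adjusted p of Kdr became 0.101 and that of Sox17 0.124. Levels per state were derived from the average and the fold change with 4 and 3 libraries and are approximate, since limma weights libraries and the average does not.

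The angiopoietin receptors rose as well. Tek, the receptor TIE2 that binds angiopoietins and steadies vessels, went from 95.9 to 193 CPM, a log2 fold change of 1.01 ± 0.22 (limma adjusted p = 4.90e-05 in the authors' deposited table). Tie1, its orphan partner receptor, went from 7.04 to 18.9 CPM, 1.42 ± 0.36 (adjusted p = 0.000302 in the authors' deposited table), the highest value of the 9 genes. It lay above 83.1% of all soma genes, and Kdr above 19.4%.

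The promoters of the members differ in base composition. Shown are the 300 bases from 250 before to 50 after the start in RefSeq (GRCm38.p6) for the lowest and the highest riser, Kdr and Tie1, and for the most and the least CpG-rich of the 6 members with an entry, Flt1 and Emcn. CpG dinucleotides, the sites of DNA methylation, are in capitals, and each sequence runs 5′ to 3′ on the strand of its gene. They lie at chr5:75978406-75978705 (minus strand), chr4:118489800-118490099 (minus), chr5:147725962-147726261 (minus) and chr3:137340828-137341127 (plus). The windows of Kdr and Flt1 lie wholly within the gene spans given above, so the start used for them is not the outer end of the span.
Kdr: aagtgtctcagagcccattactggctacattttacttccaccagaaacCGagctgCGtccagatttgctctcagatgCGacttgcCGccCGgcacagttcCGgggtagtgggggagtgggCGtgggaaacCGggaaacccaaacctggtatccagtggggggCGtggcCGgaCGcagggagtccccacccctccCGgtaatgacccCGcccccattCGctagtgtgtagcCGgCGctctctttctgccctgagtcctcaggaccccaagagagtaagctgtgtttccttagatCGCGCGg
Tie1: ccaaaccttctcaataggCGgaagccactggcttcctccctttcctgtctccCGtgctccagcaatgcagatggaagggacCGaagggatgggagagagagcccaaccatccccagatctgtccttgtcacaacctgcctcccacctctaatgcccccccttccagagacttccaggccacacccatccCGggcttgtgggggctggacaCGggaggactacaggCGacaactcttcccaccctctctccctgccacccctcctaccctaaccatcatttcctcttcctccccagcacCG
Flt1: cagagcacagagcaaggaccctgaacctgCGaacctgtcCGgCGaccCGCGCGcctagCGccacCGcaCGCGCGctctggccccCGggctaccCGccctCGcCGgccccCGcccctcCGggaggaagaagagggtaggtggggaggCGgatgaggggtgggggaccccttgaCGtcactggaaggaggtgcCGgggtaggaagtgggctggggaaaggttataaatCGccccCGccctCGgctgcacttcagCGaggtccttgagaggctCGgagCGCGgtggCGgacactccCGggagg
Emcn: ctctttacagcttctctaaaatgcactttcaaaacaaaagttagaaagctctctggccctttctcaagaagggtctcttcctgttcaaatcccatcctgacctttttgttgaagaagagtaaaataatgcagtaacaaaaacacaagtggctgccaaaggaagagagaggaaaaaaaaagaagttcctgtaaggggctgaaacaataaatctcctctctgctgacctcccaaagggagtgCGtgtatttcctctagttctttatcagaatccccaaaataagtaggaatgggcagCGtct

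These windows hold 19 CpG for Kdr, 7 for Tie1, 29 for Flt1 and 2 for Emcn, beside 6 for Eng and 3 for Tek, and the median over 32851 RefSeq promoters is 7. Flt1 and Emcn, at the ends of that range, stood at 1.04 and 1.11 in soma log2 fold change (authors' deposited table). The ETS core CNGGAAG, searched on both strands, occurs in 3 of the 6 windows (Tie1, Flt1 and Emcn) and in 31.9% of all promoters. The string ACAATG, taken as the SOX core, occurs in 0 of the 6 and in 12.6%. Other spellings of either core were not searched, so absence of a SOX site cannot be read from the 0. A match is a description of the letters only. The tables give 1 value per gene, so whether the signal lay at the promoter or elsewhere in the gene was not tested.

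The junction and surface genes stood close together in soma. Pecam1, the adhesion protein CD31 used to stain endothelium, went from 46.0 to 106 CPM, a log2 fold change of 1.20 ± 0.24 with the smallest p of the members (limma adjusted p = 9.77e-06 in the authors' deposited table). Cdh5, VE-cadherin of the adherens junction, went from 21.7 to 43.0 CPM, 0.98 ± 0.28 (adjusted p = 0.00111 in the authors' deposited table). Emcn, the sialomucin endomucin of capillaries and veins, went from 42.8 to 92.0 CPM, 1.11 ± 0.25 (adjusted p = 4.79e-05 in the authors' deposited table). Eng, endoglin, a co-receptor for BMP9 and TGF-beta ligands, went from 17.3 to 36.3 CPM, 1.07 ± 0.29 (adjusted p = 0.000734 in the authors' deposited table). In order of size, each of these 4 differed from the next by less than its standard error.

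Of the SOXF transcription factors, which drive endothelial and arterial identity, Sox17 had the widest error in soma. It went from 2.97 to 6.33 CPM, a log2 fold change of 1.09 ± 0.50 (limma adjusted p = 0.0457 in the authors' deposited table), just past the threshold, at 6.22 reads per library or more. At that depth its 95% interval ran from 0.10 to 2.08.

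No pair of members differed by more than 2 standard errors in soma. The SD of the 9 soma values was 0.20, below their median SE of 0.28. Tie1 exceeded Kdr by 0.76 ± 0.45 (SE, taking the estimates as independent), and none of the 36 pairs of members differed by more than 1.69 such errors. In order, Tie1, Pecam1, Emcn, Sox17, Eng, Flt1, Tek, Cdh5 and Kdr followed each other in steps of 0.016 to 0.32, each smaller than its error.

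Relative to the median gene no member was called in either direction. With the median of 1.04 subtracted, 5 members lay above and 4 below, and 0 of 9 passed (limma standard errors, smallest adjusted p = 0.806, smallest unadjusted p = 0.170), where 1.35% of all soma genes did. Kdr lay -0.38 from the median, Cdh5 -0.056, Tek -0.028 and Flt1 -0.0019. Tie1 lay 0.38 above it, Pecam1 0.16, Emcn 0.065, Sox17 0.048 and Eng 0.026.

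**Figure D3:**
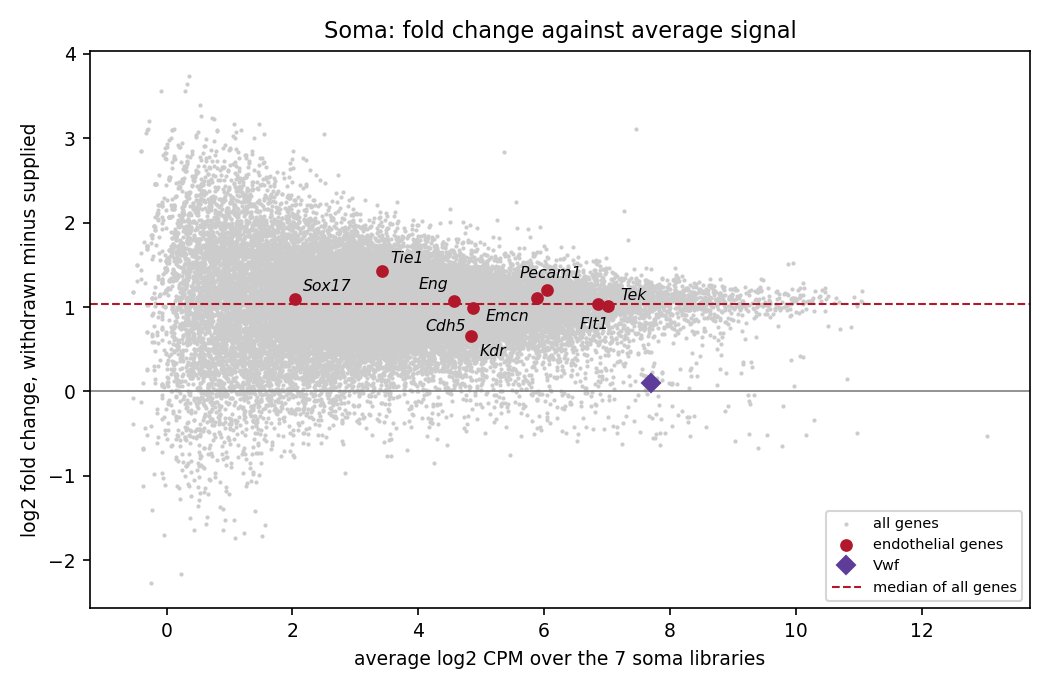
Soma log2 fold change (vertical) against average log2 CPM (horizontal) for all genes (grey), the 9 endothelial genes (red) and Vwf (purple diamond). The members lie on both sides of the dashed median of 1.04, while Vwf lies at 0.098.

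In PGCs, the same comparison found no member past the threshold. By limma, 0 of 10 members were called in the authors' deposited table, with 0 at an unadjusted p under 0.05, and 0% of all 27021 genes were called, with 266 at that unadjusted level. The members ranged from -0.57 to 0.40 in log2 fold change, with a median of -0.043 against -0.064 for all genes. Over all PGC genes the t statistics had an SD of 0.71, less than their standard errors imply, and the p-values may therefore be conservative.

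The receptors gave PGC log2 fold changes near 0 with wide errors. Kdr stood at -0.24 ± 0.50, Flt1 at -0.067 ± 0.44, Tek at 0.052 ± 0.45 and Tie1 at 0.40 ± 0.54 (SE) in the authors' deposited table. Pecam1 stood at 0.060 ± 0.45, Cdh5 at -0.36 ± 0.49, Emcn at -0.020 ± 0.47 and Eng at 0.062 ± 0.50 in the authors' deposited table. Derived levels, with the assumed sign, were 80.7 CPM supplied and 84.1 CPM withdrawn for Pecam1, and 129 and 123 CPM for Flt1. Those of Cdh5 were 35.6 and 27.8 CPM, of Tie1 14.8 and 19.5 CPM, and of Sox17 6.87 and 4.63 CPM. Sox17 stood at -0.57 ± 0.66 and Sox18 at -0.22 ± 0.75, the least precise members, in the authors' deposited table.

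The PGC intervals, given with the assumed sign, set a limit on what could have gone unseen. For Flt1 the 95% interval ran from -0.94 to 0.80 and for Tek from -0.83 to 0.94, both ending below the value of the same gene in soma. Those soma values have errors of their own (SE 0.23 and 0.22). Neither gene passed the test of the difference given below (limma standard errors, adjusted p = 0.119 and 0.152). With the residual degrees of freedom the interval for Tek reached 1.09, above its soma value of 1.01, and that for Flt1 0.96, below 1.04. For Tie1 the interval from the pooled degrees of freedom reached 1.45, above its soma value of 1.42, and for Eng 1.04, below 1.07. With the residual degrees of freedom these limits were 1.64 and 1.21. From the pooled degrees of freedom, Kdr also reached above its soma value (0.74 against 0.66). Pecam1, Cdh5, Emcn and Sox17 ended below theirs, at 0.95, 0.60, 0.91 and 0.73. If the PGC sign is turned, the lower limits become the upper ones with opposite sign. Tie1 and Eng (-0.66 and -0.92) would then end below their soma values, and Cdh5, Kdr and Sox17 (-1.32, -1.21 and -1.87) above. None of the 45 pairs of members differed by more than 1.13 standard errors in PGCs.

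Whether soma and PGCs differed was tested as the difference of the 2 log2 fold changes. With the assumed PGC sign, soma was higher for all 9 shared members, by 0.90 ± 0.57 (Kdr) to 1.66 ± 0.83 (Sox17), with a median of 1.11 against 1.07 over all 26721 shared genes. None passed (limma standard errors, adjusted p from 0.108 for Cdh5 to 0.216 for Kdr), 0% of all shared genes were called, and at an unadjusted p under 0.05 there were 5 members and 34.5% of genes. The difference for Cdh5 was 1.34 ± 0.56, for Flt1 1.11 ± 0.50 and for Pecam1 1.14 ± 0.52. After centring each table on its own median, the members lay from -0.21 (Kdr) to 0.56 (Sox17), with none called. With the PGC sign turned, all 9 differences were still positive and none passed, but they ran from 0.43 (Kdr) to 1.82 (Tie1), with adjusted p from 0.0851 (Tie1) to 0.644 (Sox17, at 0.52), and Cdh5 stood at 0.63 (adjusted p = 0.407). The order of the members and these p-values thus depend on the assumed sign.

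The genes around each member are given as a description, with no test against the member. Within 500 kb of the 10 members lay 189 measured soma genes, of which 119 rose and 0 fell by limma in the authors' deposited table, a share of 63.0% against 68.2% of all soma genes. Kdr was the lowest of its neighbourhood: the 10 genes around it ranged from 0.75 to 1.68, and all 10 rose. The lncRNA gene Gm32727, which overlaps Kdr, had a log2 fold change of 1.16 ± 0.28 in the authors' deposited table, and reads in the overlap may be counted for either gene.

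Around Tie1 the range was the widest, from -1.15 (Hyi, limma adjusted p = 0.199, not passing) to 2.45 over 28 genes. Of these 11 rose, beside 68.2% of all soma genes, and whether low signal shaped the range was not tested. Near Tie1, 2610528J11Rik rose by 2.45 ± 0.81 at an average of 0.40 log2 CPM (authors' deposited table). Tek is followed at 0.721 kb by Eqtn, a gene of the sperm acrosome, which rose by 1.52 ± 0.25 in the authors' deposited table.

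Around Pecam1, Tex2 rose by 1.19 ± 0.25 and Milr1 by 1.58 ± 0.71 (authors' deposited table). Around Cdh5, Bean1 rose by 1.11 ± 0.26 and the overlapping lncRNA gene Gm29682 by 0.78 ± 0.35 in the authors' deposited table. Pan3, a subunit of the PAN deadenylase complex next to Flt1, rose by 0.81 ± 0.23, and Fpgs, which overlaps Eng, by 1.24 ± 0.36 (authors' deposited table). Rp1, a photoreceptor gene 81.7 kb from Sox17, rose by 0.81 ± 0.22 (authors' deposited table). Beside Sox18, for which soma gave no value, Tcea2 rose by 1.33 ± 0.51 (authors' deposited table), and over its 26 neighbours the median was 0.94.

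**Figure D4:**
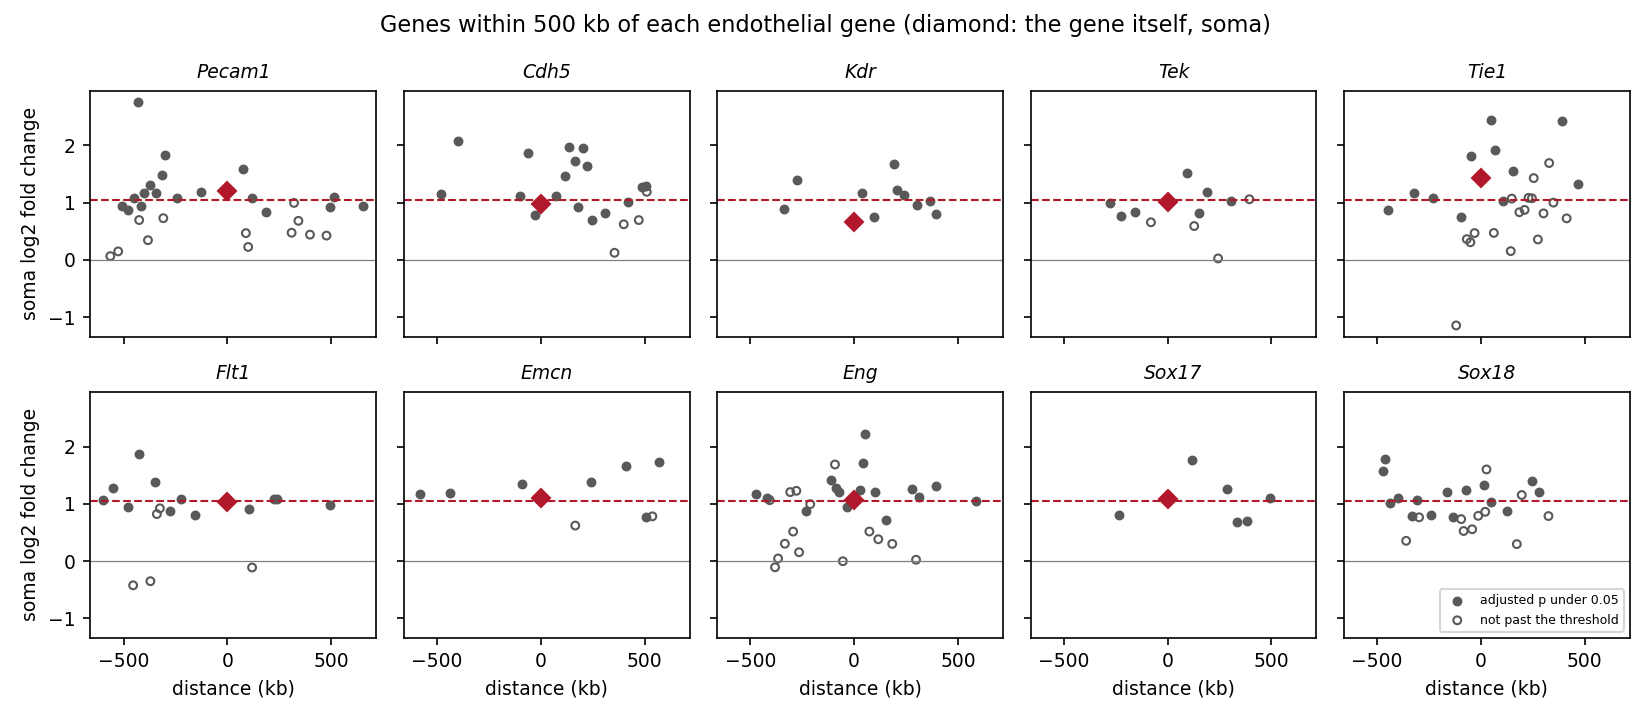
Soma log2 fold change (vertical) of measured genes within 500 kb of each endothelial gene, against distance between gene centres in kb (horizontal). Filled points passed an adjusted p of 0.05, the diamond is the endothelial gene and the dashed line the median of all genes. Kdr lies below all 10 of its neighbours, and the neighbours of Tie1 range from -1.15 (not past the threshold) to 2.45.

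Other genes of the same pathways, on 7 vascular lists fixed by name, rose in about the share of all genes. Of 95 measured in soma, 67 rose (70.5%) and 0 fell by limma in the authors' deposited table. Their median log2 fold change was 1.02, set beside 68.2% and 1.04 for all genes. In PGCs 0 of 96 passed, with 1 at an unadjusted p under 0.05. With the residual degrees of freedom alone 33 of the 95 rose (34.7%, against 32.1% of all genes), and by Holm adjustment 12 (12.6%, against 9.87%).

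Among VEGF ligands and co-receptors 6 of 8 rose, and in the angiopoietin pathway 5 of 5, beside 68.2% of all soma genes. Vegfc, the ligand of lymphatic growth, rose by 1.24 ± 0.23, Nrp1, a VEGF co-receptor, by 1.14 ± 0.23 and Flt4, the receptor for VEGF-C, by 1.10 ± 0.28 in the authors' deposited table. Vegfb stood at -0.00035 ± 0.57 and did not pass (authors' deposited table). Angpt1, the activating ligand of TIE2, rose by 1.02 ± 0.22, Ptprb, the phosphatase VE-PTP that restrains TIE2, by 0.97 ± 0.23, Angpt4 by 1.12 ± 0.30 and Foxo1, a transcription factor held back by TIE2 signalling, by 0.75 ± 0.24 in the authors' deposited table.

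Of 13 measured genes of BMP9 and ALK1 signalling, in which endoglin acts, 10 rose. This count and those that follow are read against the 68.2% of all soma genes that rose. Smad4, the shared SMAD, rose by 1.49 ± 0.26, Tgfbr2 by 1.29 ± 0.26 and Bmpr2, the type II receptor, by 0.93 ± 0.24 in the authors' deposited table, while Id3, a target gene, stood at 0.75 ± 0.71 and did not pass. Of 22 endothelial transcription factors 14 rose, with Erg, an ETS factor of endothelium, at 1.39 ± 0.22, Epas1, the hypoxia factor HIF-2 alpha, at 1.35 ± 0.26 and Lmo2 at 1.78 ± 0.40 in the authors' deposited table. Hey1 stood at -0.026 ± 0.55 and did not pass (authors' deposited table). Of 6 lymphatic genes 5 rose, among them Ccbe1 by 1.24 ± 0.22, Itga9 by 1.15 ± 0.22 and Reln by 1.07 ± 0.20, with Prox1, the lymphatic master factor, at 0.51 ± 0.25 and short of the threshold (limma adjusted p = 0.0609) in the authors' deposited table.

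The Notch genes of vessels had the lowest count, 3 of 9 beside 68.2% of all soma genes, with a median of 0.69. Rbpj, the DNA-binding partner of Notch, rose by 1.02 ± 0.22, Notch1 by 0.93 ± 0.29 and Notch4, the endothelial receptor, by 0.94 ± 0.32, while Hes1, a target gene, stood at 0.18 ± 0.62 in the authors' deposited table. Each of the 9 stood lower than the median gene, with 0 differing from it past the threshold. Their averages include low ones, such as 1.36 log2 CPM for Hes1, and whether depth shaped the count was not tested.

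Of 32 junction and surface genes beyond the members 24 rose, beside 68.2% of all soma genes. Stab2, a scavenger receptor of sinusoids, rose by 1.18 ± 0.22, Jam2, a junction protein, by 1.37 ± 0.27 and Sele, E-selectin, by 1.64 ± 0.33 in the authors' deposited table. Vwf, von Willebrand factor, the clotting protein stored by endothelium, stood at 0.098 ± 0.22 (limma adjusted p = 0.680) at an average of 7.69 log2 CPM in the authors' deposited table, higher than that of any member. Relative to the median gene Vwf lay -0.94 away (adjusted p = 0.00224), and 1 of the 95 vascular genes (1.05%) thus differed from it, near the 1.35% of all soma genes. In PGCs Vwf stood at 0.11 ± 0.42 in the authors' deposited table.

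Among markers of the other cells that the soma gate can hold, between 4 of 8 and 11 of 12 genes per list rose. These counts are read against the 68.2% of all soma genes that rose by the same threshold. In soma 7 of 11 mural cell genes rose, among them Rgs5 by 1.40, Myh11 by 1.16 and Abcc9 by 0.79, with Des at 0.29 not passing, in the authors' deposited table. Of 12 blood genes 11 rose, among them Ptprc by 1.22, Adgre1 by 1.15 and Itgam by 1.11, with Hba-a1 at 0.091 not passing (authors' deposited table). Of 10 supporting cell genes 7 rose, among them Runx1 by 1.34, Lgr5 by 1.05 and Wt1 by 0.96, with Foxl2 at -0.031 not passing (authors' deposited table). Of 8 stromal genes 4 rose, the 3 with the smallest p being Dcn by 1.39, Col1a2 by 0.79 and Nr2f1 by 0.81, with Lum at 0.072 not passing in the authors' deposited table.

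Of 10 germ cell genes 6 rose in soma, among them Pou5f1 by 1.95, Stra8 by 1.28 and Ddx4 by 0.99, with Dppa3 at -0.24 not passing, in the authors' deposited table. Of all soma genes 68.2% rose by the same threshold. The medians of the mural, blood, supporting, stromal and germ cell lists were 0.99, 1.15, 0.93, 0.52 and 0.90, beside 1.07 for the endothelial members. None of the genes on these 5 lists passed in PGCs, and none of them differed from the median gene in soma by limma standard errors. Differences between lists were not tested.

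**Figure D5:**
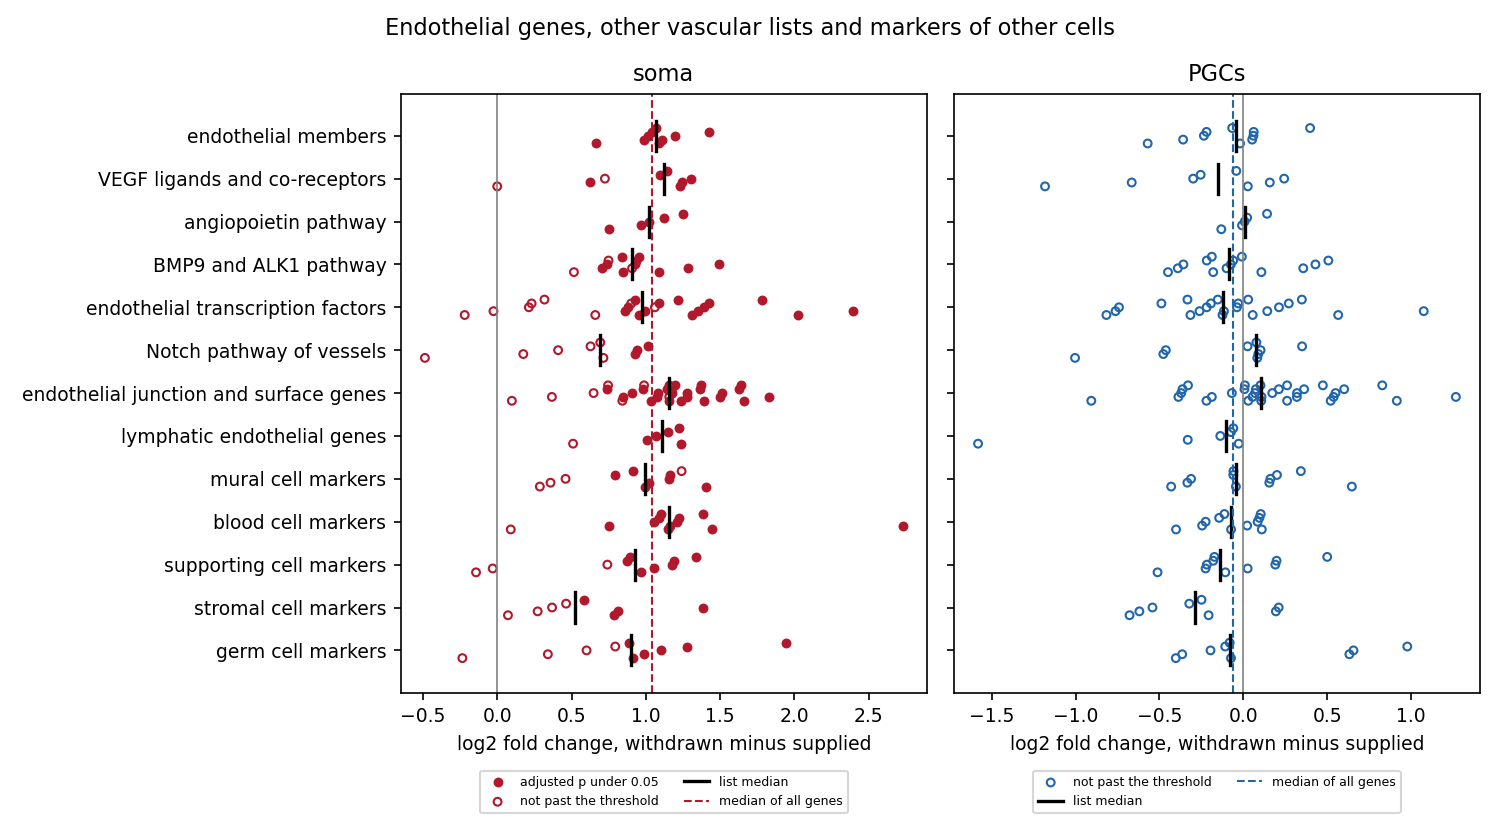
Log2 fold change (horizontal) of each measured gene on the endothelial, vascular and other cell lists in soma (left) and PGCs (right, sign assumed). Filled points passed an adjusted p of 0.05, short bars are list medians and dashed lines the median of all genes. In soma the list medians run from 0.52 (stromal) to 1.16 (junction and surface), and no point in PGCs is filled.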

How the data were processed

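Oct4GFP+ PGCs and Oct4GFP- soma were sorted and frozen, and CUT&RUN libraries were made from 1000 cells with 18 PCR cycles, per the labels' protocols. Trim Galore 0.4.0, Bowtie2 2.2.5, Picard and mm10 are named in the submitters' processing notes. Those notes do not state the counting over genes, the filters or the scaling. The authors' deposited tables come from voom and limma, per the file headers, and give fold changes as log2 and averages as log2 CPM values. Per the file headers, the deposited t is a score, followed by deposited p-values, their adjustment and B, a natural log of odds. The 2 gene tables were used and the 2 repeat tables were not.

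Genes were chosen by name, and the members and lists were chosen with earlier results of these data known. Dividing a log2 fold change by t gave its standard error. For soma the deposited p-values have 143530 degrees of freedom and for PGCs 216168, which pool the residual 5 and 8 over all genes. The design text calls the libraries biological replicates, and whether litters were shared is not stated. Centred values used the same errors, and the difference between tables used Satterthwaite degrees of freedom and takes the estimates as independent. P-values were adjusted over all genes by Benjamini-Hochberg with a threshold of 0.05. Direction and depth were derived from the standard errors and from the steps of the lowest averages (400 of 400 in each table matched whole reads). A smooth variance model was fitted to the genes below the median average for the direction. The direction and the centring were tested on data simulated with limma 3.58.1. The difference between tables was tested on random draws with the deposited standard errors, at a set difference larger than that of any member. The derivation of depth was not tested on simulated data. Gene spans and promoters came from RefSeq (GRCm38.p6, the mm10 assembly), and spans matched 92.4% of soma and 92.7% of PGC genes by symbol. Named are the members, up to 3 genes per list with the smallest soma p past the threshold and the 1 with the largest, and the nearest genes, of which predicted genes are mostly left unnamed and 1 is not reported here. Python 3.11.15 and scipy 1.17.1 were used. Counting intervals per library could not be given.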

Additional observations from a re-analysis of the deposited data

How the results depend on the processing

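The counts of called members were recomputed with residual degrees of freedom, an adjusted p under 0.01, Holm adjustment and without the genes with the lowest 25% of averages. In soma 9 members rose as reported and without those genes, and 7 with the residual degrees of freedom or at 0.01, where Kdr and Sox17 were lost. With the residual degrees of freedom these 7 lay just under the threshold (limma t, adjusted p from 0.0446 for Pecam1 to 0.04997 for Cdh5). By Holm adjustment 1 remained, Pecam1. Of all soma genes 32.1%, 51.1% and 9.87% rose in these settings. Shares among genes with averages like those of the members were not computed in these settings, so an excess of members cannot be read from the counts. The vascular count of 67 fell to 33 with the residual degrees of freedom (34.7%) and to 12 by Holm (12.6%), as the share of all genes fell too. The cause was not tested beyond these settings being stricter by construction. Counts of 0 in PGCs, relative to the median and between soma and PGCs stayed at 0 in each setting tried, including the PGC sign turned. Centred on the median, the soma values of Cdh5, Kdr, Tek and Flt1 became -0.056, -0.38, -0.028 and -0.0019, and that of Emcn in PGCs 0.044. With each table centred, the differences of Kdr, Tek, Tie1 and Eng between soma and PGCs became -0.21, -0.14, -0.078 and -0.10. These follow from the subtraction of the common shift. No paired analysis was possible because the tables hold no values per library, and leaving out libraries could not be run for the same reason. Depth limits Sox17 and Sox18 most, at about 6.22 reads per soma library and 1.52 per PGC library at the smallest size derived.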

Other observations

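Gm29874, a lncRNA gene 111 kb from Sox17, was named as a nearest neighbour. Its log2 fold change was 1.77 ± 0.45 in soma (limma adjusted p = 0.000379) and 1.63 ± 0.67 in PGCs (adjusted p = 1.00, not passing, sign assumed) in the authors' deposited table, while Sox17 itself stood at 1.09 and -0.57. It was singled out after its values were seen, the difference between the genes was not tested, and no shared gene passed the test of soma against PGCs.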
